A study of Rattus norvegicus with 16 samples.

Results

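The transcripts described here are 5 genes of the circadian clock, the repressors Per1 (ENSRNOG00000007387), Per2 (ENSRNOG00000020254), Per3 (ENSRNOG00000018413) and Nr1d1 (ENSRNOG00000009329) and the output gene Dbp (ENSRNOG00000021027), out of 23918 genes in the count tables. They were picked by identifier, with their values in the comparison of hyperoxia with room air (RA) already known, so their levels in that comparison are given as a description, and counts of calls there only beside the share of all genes called. Wild type Sprague-Dawley rats, male per the labels, breathed 85% oxygen from postnatal day 1 to 14, or RA throughout, and both groups then lived in RA until 1 year of age. RNA was sequenced from the aorta (arch and thoracic segment) and the kidney, with 4 RA and 4 hyperoxia libraries for each tissue, 16 in all. Libraries carry their label names, Aorta1004_S1 to Aorta1007_S4 under RA, Aorta1010_S5 to Aorta1013_S8 after hyperoxia, kidney1020 to kidney1023 under RA and kidney1011 to kidney1014 after hyperoxia, and values below follow that order.

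In the clock, the transcription factors CLOCK and BMAL1 bind E-box sequences and switch on their own repressors, the PER and CRY proteins, which build up, block that activity and are then degraded, so that the transcripts rise and fall over a day in most tissues. NR1D1 (REV-ERB alpha), another E-box target, closes a further loop by repressing the gene for BMAL1. DBP is a transcription factor under E-box control that passes the rhythm on to metabolic genes through D-box sequences, which also lie in Per promoters. The clock hour at which the tissues were taken is not given in the sources used here. A difference in hour between the exposure groups therefore cannot be told apart from exposure.

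Per2 and Nr1d1 carried these motifs close to an annotated start, and their windows are shown for that reason. RefSeq gene starts in the rat build GRCr8 gave 250 bases upstream of each gene, read 5′ to 3′ on the strand of the gene, and capitals mark the motifs found. The search covered both strands for the E-box CACGTG, the E'-box CACGTT, which reads as AACGTG on the opposite strand, and the D-box TTANGTAA. The Per2 window lies at chr9:99496994-99497243 on the minus strand. The first Nr1d1 window is chr10:84231813-84232062 and the second, upstream of a start further inside the gene, is chr10:84229455-84229704, both on the minus strand.
Per2: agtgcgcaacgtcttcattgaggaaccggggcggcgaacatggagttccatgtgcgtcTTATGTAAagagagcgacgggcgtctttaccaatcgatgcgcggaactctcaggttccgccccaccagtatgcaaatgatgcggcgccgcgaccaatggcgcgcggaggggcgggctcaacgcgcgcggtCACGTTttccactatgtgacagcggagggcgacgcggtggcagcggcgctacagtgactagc
Nr1d1, first start: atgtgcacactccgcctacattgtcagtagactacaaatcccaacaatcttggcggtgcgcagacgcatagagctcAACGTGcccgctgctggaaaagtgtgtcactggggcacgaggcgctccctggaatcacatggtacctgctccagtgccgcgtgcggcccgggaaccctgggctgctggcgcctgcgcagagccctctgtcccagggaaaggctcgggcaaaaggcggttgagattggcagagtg
Nr1d1, second start: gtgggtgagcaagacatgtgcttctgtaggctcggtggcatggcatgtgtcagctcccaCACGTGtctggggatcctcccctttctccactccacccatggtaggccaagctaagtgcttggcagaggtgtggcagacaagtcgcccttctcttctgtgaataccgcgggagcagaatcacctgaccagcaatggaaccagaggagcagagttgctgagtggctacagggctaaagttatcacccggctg
The Per2 E'-box began 62 bases and its D-box 192 bases before the start. In Nr1d1 the E'-box began 174 bases before the first start and the E-box 191 bases before the second. No such letters were found in the windows of Dbp, Per1 and Per3, which says nothing about binding elsewhere. Among 33469 RefSeq promoter windows of the same length, 5.59% held the E-box, 4.07% the E'-box and 2.04% the D-box.

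Per2, Per3 and Dbp were lower in every hyperoxia library than in every RA library, in the aorta and again in the kidney. Dbp stood 7.20-fold lower in the aorta and 1.83-fold lower in the kidney, Per3 3.79-fold and 1.73-fold, and Per2 1.71-fold and 1.72-fold. Per1 and Nr1d1 overlapped between the exposure groups in both tissues. All levels are CPM, counts relative to the library total after TMM scaling over the 16 libraries, and are compared between libraries of 1 gene, never between genes, whose lengths differ.

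**Figure D1:**
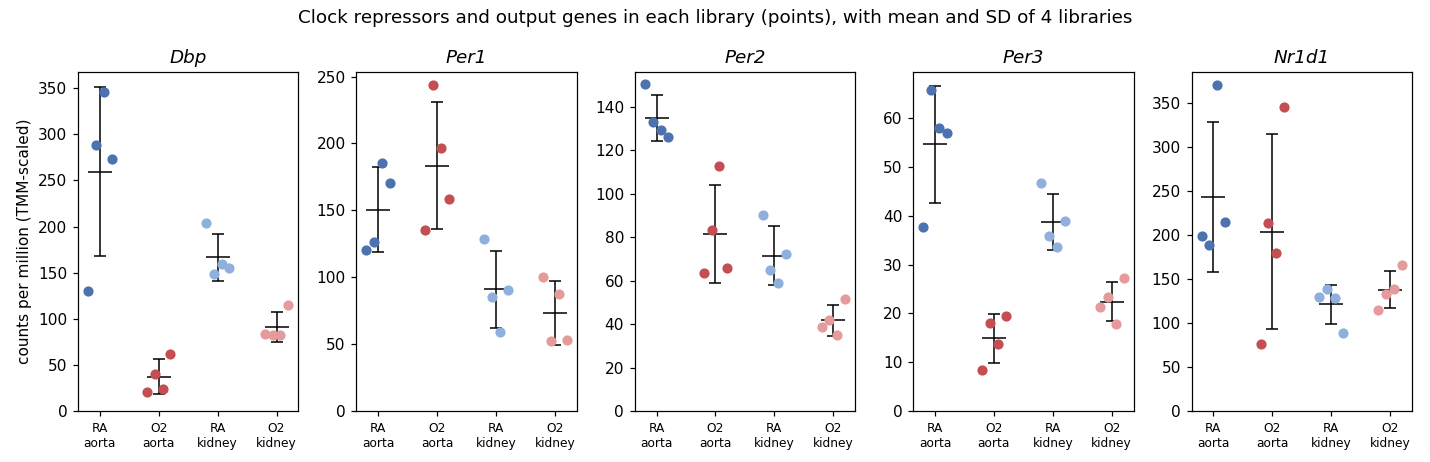
Level of each clock gene in every library, in CPM on linear axes that start at 0. Points are libraries, bars are the mean and SD of 4 libraries, and O2 stands for neonatal hyperoxia; Dbp, Per2 and Per3 show a gap between the RA and hyperoxia points of each tissue, from 62.3 to 130.0 CPM for Dbp in the aorta.

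Per1, the PER gene that also answers quickly to hormones and other signals, stood at 120, 126, 185 and 170 CPM in the RA aortas and at 135, 244, 197 and 158 CPM in the hyperoxia aortas. The ranges overlapped, with group means of 151 ± 32.1 and 184 ± 47.5 CPM (SD, n = 4 each). The fitted log2 fold change was 0.24 with a standard error (SE) of 0.21. In the kidney Per1 ranged from 59.2 to 129 CPM under RA and from 52.4 to 99.8 CPM after hyperoxia, with a log2 fold change of -0.32 (SE 0.28), and these groups overlapped too.

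Per2, a core repressor of CLOCK and BMAL1, stood at 150.2, 133, 129 and 126 CPM in the RA aortas and at 63.6, 83.3, 113 and 65.9 CPM in the hyperoxia aortas. The RA values were close together (coefficient of variation 7.94%), and the highest hyperoxia aorta, Aorta1012_S7, came nearest to them. Mean levels were 135 ± 10.7 and 81.4 ± 22.7 CPM (SD, n = 4 each), a log2 fold change of -0.78 (SE 0.19). In the kidney Per2 stood at 90.2, 64.8, 58.9 and 72.2 CPM in the RA libraries and at 38.8, 41.7, 35.0 and 51.6 CPM in the hyperoxia libraries. All 4 hyperoxia kidneys were below the lowest RA kidney, with means of 71.5 ± 13.6 and 41.8 ± 7.10 CPM and a log2 fold change of -0.78 (SE 0.16). In GRCr8, Per2 overlaps the uncharacterised gene LOC134480412.

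Per3, the PER gene held to be least needed for the rhythm itself, stood at 37.6, 65.7, 58.0 and 57.0 CPM in the RA aortas and at 8.33, 18.0, 13.7 and 19.5 CPM in the hyperoxia aortas. Aorta1004_S1 was the lowest of its group, yet above the highest hyperoxia aorta. Means were 54.6 ± 11.96 and 14.9 ± 5.01 CPM (SD, n = 4 each), a log2 fold change of -1.92 (SE 0.28). Of the 15086 genes tested in the aorta, 42 had a lower one. The RA kidneys held Per3 at 46.7, 35.8, 33.6 and 38.9 CPM and the hyperoxia kidneys at 21.4, 23.3, 17.7 and 27.2 CPM. These groups did not overlap, and their means of 38.7 ± 5.76 and 22.4 ± 3.94 CPM gave a log2 fold change of -0.79 (SE 0.15), with 195 of 15069 kidney genes lower.

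Nr1d1, the nuclear receptor that represses the gene for BMAL1, stood at 199, 189, 371 and 215 CPM in the RA aortas and at 76.7, 213, 179 and 346 CPM in the hyperoxia aortas. The hyperoxia aortas were the most scattered of any group for any of the 5 genes, with a coefficient of variation of 54.5%, and they covered both sides of most RA values. Means were 243 ± 85.5 and 204 ± 111 CPM (SD, n = 4 each), a log2 fold change of -0.30 (SE 0.41). In the kidney Nr1d1 ranged from 88.6 to 139 CPM under RA and from 115 to 166 CPM after hyperoxia, a log2 fold change of 0.18 (SE 0.16) with overlap. Nr1d1 overlaps the thyroid hormone receptor gene Thra on the opposite strand. Counting is not stated to use strand, so how reads of the shared part were assigned is uncertain. Its deposited estimated counts were whole (within 0.01) in 0 of 16 libraries, against 16 of 16 for Per1.

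Dbp, the output factor, stood at 130.0, 288, 346 and 273 CPM in the RA aortas and at 20.7, 40.6, 24.4 and 62.3 CPM in the hyperoxia aortas. Aorta1004_S1 was far below the other RA aortas and Aorta1013_S8 was the highest of its group, and a gap remained between them. Means were 259 ± 91.7 and 37.0 ± 18.9 CPM (SD, n = 4 each), a log2 fold change of -2.85 (SE 0.42), with 10 of 15086 genes lower. The RA kidneys held Dbp at 204, 148, 159 and 155 CPM, and the hyperoxia kidneys at 83.7, 82.9, 82.6 and 115 CPM. All hyperoxia kidneys were below all RA kidneys, kidney1014 being the closest, with means of 167 ± 25.5 and 91.1 ± 16.04 CPM, a log2 fold change of -0.87 (SE 0.15) and 167 of 15069 genes lower.

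**Figure D2:**
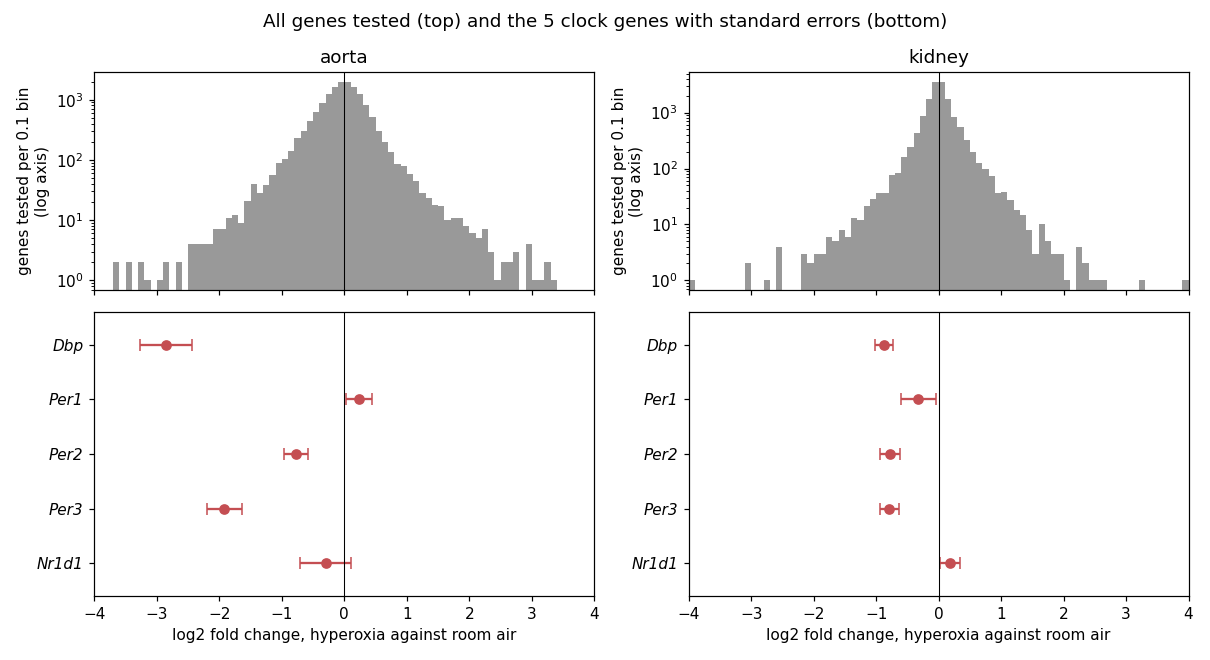
Log2 fold change of hyperoxia against RA for all genes tested (top, number of genes per bin of 0.1 on a log axis) and for the 5 clock genes with their SE (bottom), aorta on the left and kidney on the right. Dbp at -2.85 and Per3 at -1.92 lie in the far lower tail in the aorta, while the kidney values of Dbp, Per2 and Per3 lie close together from -0.87 to -0.78.

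In either tissue the middle value of the 5 log2 fold changes was -0.78, against -0.02 over all aorta genes and 0.01 over all kidney genes. By edgeR's quasi-likelihood test, with calls made at a Benjamini-Hochberg adjusted p (FDR) under 0.1 that also passed the fold limit of the study, 0 of the 5 were called in the aorta, where 0.0199% of all genes tested were, and 0 in the kidney, where 0% were. At an unadjusted p under 0.05 edgeR counted 3 of 5 in each tissue, against 9.24% of all genes in the aorta and 4.96% in the kidney. DESeq2 called Dbp, Per2 and Per3 in each tissue, 3 of 5, where it called 1.13% of all genes in the aorta and 0.153% in the kidney. Hyperoxia libraries lay wholly below RA libraries for 3 of 5 genes in each tissue, as for 1.82% of all genes in the aorta and 1.35% in the kidney. These contrasts chose the genes, so the counts of calls are no test of them and nothing is read from them.

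Hyperoxia aorta libraries held 68643331 to 83929128 counts and RA aorta libraries 33611558 to 47021630, so depth moved with exposure there, while kidney libraries held 25031947 to 26521895. The smallest count of any of the 5 genes was 447 (Per3), for which counting alone gives a coefficient of variation of 4.73%, far less than the spread between libraries. After thinning to the smallest aorta library, the log2 fold change of Dbp was -2.82, of Per3 -1.92 and of Per2 -0.79. With each aorta library left out in turn, Dbp ran from -3.23 to -2.65, Per3 from -2.08 to -1.73 and Per2 from -0.97 to -0.68. Per1 ran from 0.08 (without Aorta1011_S6) to 0.36 (without Aorta1010_S5) and Nr1d1 from -0.68 (without Aorta1013_S8) to -0.02 (without Aorta1010_S5). The study left out 1 hyperoxia kidney it did not name; leaving out each library in turn kept Dbp between -1.01 and -0.76, Per3 between -0.90 and -0.69 and Per2 between -0.90 and -0.65 in the kidney. There Per1 ran from -0.51 (without kidney1011) to -0.11 (without kidney1020) and Nr1d1 from 0.07 (without kidney1023) to 0.26 (without kidney1021). The log2 fold changes of Per1 and Nr1d1 were small, so single libraries moved them by much relative to their size. Their direction held in both tissues. In bulk tissue, fewer cells of a type and less RNA per cell cannot be told apart. Cell type markers could not be looked up, so the tissue labels were not checked against them.

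Over the 10 pairs of the 5 genes, the mean Pearson's r within the exposure groups was 0.40 in the aorta and 0.33 in the kidney. The pair of clock genes that covaried most within the exposure groups was Per2 with Per3 in the kidney and Dbp with Per3 in the aorta. Each library's log2 CPM was taken as its deviation from its group mean, over the 8 libraries of a tissue. These points share library and depth, so the correlations describe these libraries. Exact two-sided permutation p-values within groups, with 576 arrangements, were added after the values were seen and are adjusted over 20 pairs.

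In the kidney Per2 and Per3 followed each other closely (Pearson's r = 0.970, exact permutation p = 0.00174, the smallest possible, adjusted p = 0.0347), with a Spearman rho of 0.929 (permutation p = 0.00347). The r stayed at 0.923 without the 2 libraries farthest from the median of Per2. Only 2 of the other 15068 kidney genes correlated more strongly with Per2 than Per3 did. Dbp had an r of 0.866 with Per2 and of 0.813 with Per3 (adjusted permutation p = 0.182 for both), but these values rested on the 2 libraries farthest from the median of Dbp, without which r was -0.25 and -0.07. Per1 had an r of 0.03 with Dbp, 0.13 with Per2, -0.01 with Per3 and -0.33 with Nr1d1 in the kidney. Nr1d1 had 0.48 with Dbp, 0.20 with Per2 and 0.19 with Per3 there, and none of these 7 pairs passed (adjusted permutation p from 0.639 to 0.997).

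In the aorta Dbp and Per3 had the highest value (r = 0.889, rho = 0.905, exact permutation p = 0.00521 and 0.0139, adjusted p = 0.0521), and r was 0.792 without the 2 farthest libraries. Aorta1004_S1 and Aorta1010_S5 were the lowest of their groups for both genes. Nr1d1 correlated with Dbp at r = 0.767 and with Per3 at r = 0.781 there, neither below 0.05 after adjustment (adjusted permutation p = 0.194 and 0.266). For Per2 in the aorta, r was 0.02 with Per3 (adjusted permutation p = 0.997) and -0.37 with Dbp (adjusted permutation p = 0.848). These values depended on few libraries. Without the 2 farthest from the median of Per2, r with Per3 was -0.68. Without the 2 farthest from the median of Dbp, r of Per2 with Dbp was -0.93. Aorta1004_S1, lowest for Dbp and Per3, was the highest RA aorta for Per2. The difference between tissues in these correlations was not tested.

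**Figure D3:**
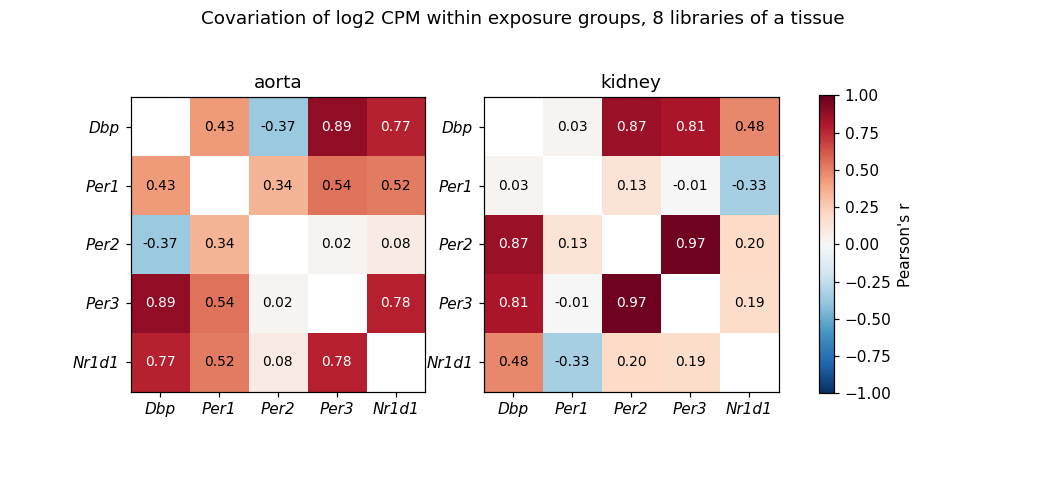
Pearson's r between the 5 clock genes over the 8 libraries of a tissue, after each library's log2 CPM was set relative to its group mean (aorta left, kidney right; red is positive and blue negative). The Per2 and Per3 cell holds 0.97 in the kidney and 0.02 in the aorta. Without the 2 libraries farthest from the median of Per2 these were 0.92 and -0.68.

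Likeness to all 5 genes together was taken as the mean r to them. The genes named are the extremes of 15081 aorta genes and 15064 kidney genes. The aorta gene with the highest mean r to them was ENSRNOG00000001786 (0.706, 8 libraries) and the one with the lowest was ENSRNOG00000028993 (-0.705). In the kidney these were ENSRNOG00000031716 (0.669) and ENSRNOG00000045775 (-0.671).

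The comparison of kidney with aorta shows how these genes differ between tissues within an exposure group. It was tested with edgeR's quasi-likelihood test, but its libraries also entered the contrasts that chose the genes, so it is not independent of that choice, and tissue cannot be told apart from library preparation. Libraries of both tissues were fitted as independent. By the labelled sex and the study's number of males, some rats would have given both, which the p-values do not allow for. In RA rats all 5 genes were lower in the kidney and called. Of the 15366 genes tested there, 10649 were called in either direction and 34.3% were called lower in the kidney. Nr1d1 (log2 fold change -1.01, SE 0.24, FDR = 0.00509) and Per2 (-0.92, SE 0.14, FDR = 0.000401) were lower in every RA kidney than in every RA aorta. The share of all genes without overlap between the tissues was not counted. Of all genes tested there, 20.8% had a lower log2 fold change than Nr1d1 and 22.5% than Per2. Per1 (-0.73, SE 0.24, FDR = 0.0242) and Per3 (-0.50, SE 0.18, FDR = 0.0358) passed with overlapping libraries.

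Dbp was the least firm of the 5 in RA rats (log2 fold change -0.64, SE 0.27, FDR = 0.0618). It lost its call in 6 of 8 fits that left out 1 library, with an edgeR FDR of up to 0.160 without Aorta1006_S3. Aorta1004_S1 lay below all 4 RA kidneys for Dbp. With scaling by library totals only, a setting that shifted the median of all genes by 0.18 on the log2 scale, 2 of 5 genes were called, and Dbp, Per1 and Per3 were not.

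In hyperoxia rats 4 of 5 genes were called, where 71.8% of 15813 genes tested were called in either direction. Per1 (log2 fold change -1.31, SE 0.27, FDR = 0.00199) and Per2 (-0.95, SE 0.20, FDR = 0.00252) were lower in every hyperoxia kidney than in every hyperoxia aorta. Dbp was higher in every hyperoxia kidney (1.31, SE 0.33, FDR = 0.00590), and Per3 was higher with overlapping libraries (0.61, SE 0.25, FDR = 0.0590). The share of all genes without overlap was not counted here either. Of all genes tested, 17.6% had a lower log2 fold change than Per1, 22.7% than Per2 and 78.8% than Dbp. The Per3 call was lost in 3 of 8 fits without 1 library (edgeR FDR up to 0.145, without kidney1014). Nr1d1 was not called (-0.55, SE 0.37, FDR = 0.218), but was without Aorta1010_S5, its lowest library (-0.82, edgeR FDR = 0.0156).

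**Figure D4:**
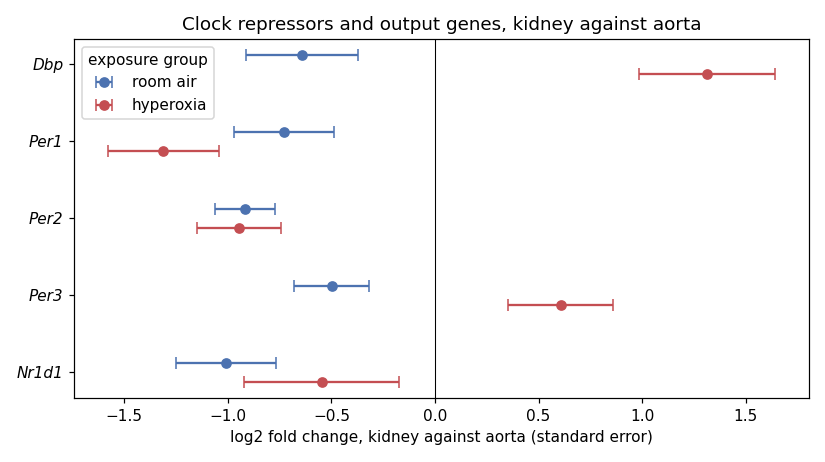
Log2 fold change of kidney against aorta with SE for each clock gene, RA rats in blue and hyperoxia rats in red, 4 libraries per tissue in each. All 5 RA values are below 0, while in hyperoxia rats Dbp (1.31) and Per3 (0.61) are above 0; with library totals only, Dbp, Per1 and Per3 are not called in RA rats.

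The order of the 4 groups followed from these values. For Dbp and Per3 the group means fell from RA aorta through RA kidney and hyperoxia kidney to hyperoxia aorta, and the RA aorta and RA kidney overlapped for both genes, as did the hyperoxia kidney and hyperoxia aorta for Per3. For Per2 the order was RA aorta, hyperoxia aorta, RA kidney and hyperoxia kidney, the middle groups overlapping. Per1 and Nr1d1 were higher in both aorta groups than in both kidney groups by their means. The change of the tissue difference with exposure was not tested, because it is made of the exposure contrasts that chose the genes.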

How the data were processed

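RNA from 8 aortas and 8 kidneys was sequenced as polyA-selected paired-end libraries. Per the labels and the study's methods, the authors quantified reads with kallisto and summed transcripts to genes with tximport, and they deposited estimated counts per Ensembl gene, 1 table per tissue, which need not be whole. These were rounded here. Groups came from the labels. Per the study's methods the 4 libraries of a group and organ came from 4 animals, so within an organ p-values measure the spread between animals. The study evaluated fewer than 8 male rats per exposure group at 1 year. With all libraries labelled male, some rats would have given both organs. The labels of RA aortas and RA kidneys share no number, and this conflict was not settled. Kidney against aorta was fitted without pairing. All 5 genes were named in every comparison, together with, in each tissue, the genes most and least alike to them. The genes and lists were chosen with earlier results of these data known. Other clock genes and cell type markers could not be matched, since the tables carry no symbols and 0 of 47357 genes in the RefSeq table carried an Ensembl identifier.

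Within each comparison, edgeR 4.0.16 (R 4.3.3) fitted the quasi-likelihood model after filterByExpr and TMM scaling, with Benjamini-Hochberg adjustment over all genes tested, and called genes at FDR under 0.1 with a fold change over 1.25. CPM used TMM factors over all libraries, and correlations used log2 CPM with a prior count of 2. DESeq2 1.42.0, limma 3.58.1 (voom with quality weights), other scalings and filters, thinned counts and leaving out each library were alternatives. Fits were tested on simulated data. Motif search used RefSeq promoter windows of GRCr8, whose coordinates are not those of the counts.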

Additional observations from a re-analysis of the deposited data

Results flagged for a closer look

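A library stood apart from the other 3 of its group by Dixon's test in 2 of 24 sets of 4 values examined, where chance gives about 1.2. The sets were the level of each clock gene and the total counts in each group, so they share libraries. Nr1d1 in Aorta1006_S3 was at 371 CPM, with the next RA aorta at 215 CPM. Dbp in kidney1014 was at 115 CPM, with the next hyperoxia kidney at 83.7 CPM.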

How the results depend on the processing

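The 160 exposure values of the 5 genes (16 alternatives for each gene in each tissue) kept their direction and stayed within the spread between replicates. The number called in the aorta did not hold: edgeR called 0, 2 without a filter on low counts, and 0 to 1 when a library was left out (1 without Aorta1013_S8), while DESeq2 called 3 and voom 2. Over all aorta genes these tools called 3 (edgeR), 8 (no filter), 170 (DESeq2) and 20 (voom), and edgeR called 2 to 15 with a library left out (15 without Aorta1007_S4). In the kidney DESeq2 called 3 of the 5, against 0, and 23 of all genes, against 0. In RA rats, library totals only left 2 of the 5 called in kidney against aorta, with FDR = 0.202 for Dbp, 0.125 for Per1 and 0.233 for Per3. Over all alternatives the edgeR, DESeq2 or voom FDR ran from 0.00146 to 0.202 for Dbp, 0.00661 to 0.125 for Per1 and 0.00352 to 0.233 for Per3 there, and in hyperoxia rats from 0.0331 to 0.253 for Per3 and 0.0152 to 0.652 for Nr1d1. The causes were not tested.

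Hyperoxia aortas and kidneys share 3 label numbers (Aorta1011_S6 with kidney1011, Aorta1012_S7 with kidney1012 and Aorta1013_S8 with kidney1013). RA aortas and RA kidneys share no label number. The labels do not say whether libraries with a shared number are from the same rats, and all were fitted as unpaired. Deviations of same-numbered libraries correlated at r = 0.04, -0.03 and 0.10. Deviations over 3 libraries, in different organs, cannot show whether a rat gave both, so nothing is read from these values. With the number as a replicate block over those 6 libraries, 4 of the 5 genes were called as before, with Per3 lost (log2 fold change 0.31, FDR = 0.253) and Nr1d1 gained (-0.87, FDR = 0.0184). The same 6 libraries without a block, an alternative chosen after seeing the data, gave 0.30 (FDR = 0.180) and -0.92 (FDR = 0.0152).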
